A study of Mus musculus with 18 samples.

Results

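Astrocyte genes were followed in the frontal cortex of newborn mice that were control or carried mutations in Rarb and Rxrg. The 9 genes (Aldoc, Mlc1, Ndrg2, Aqp4, Gja1, Slc1a2, Gfap, S100b and Apoe) were chosen by name as genes of astrocytes, out of the 54532 genes counted. The choice was made with earlier results of these data known. All 9 passed the filter on low counts in every comparison. Their level was read as CPM, fragments of the gene scaled to a library total of 1e6, in each of 18 libraries. The brains were taken at postnatal day 0, frozen and microdissected, and each library is labelled Orbital, Medial or Dorsal. With 3 libraries per region and genotype there were 6 groups of 3, labelled control or RXRg, RARb double mutant (dKO here). Strain, litter, sex, the altered exons and the number of animals pooled per library are not given in the labels.

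Astrocytes arise from radial glia, the dividing stem cells of the cortical wall, after the main period of neuron production, and they are few and immature in the mouse cortex at birth. They take up glutamate, buffer water and potassium at endfeet on blood vessels, couple to one another through gap junctions and supply lipoprotein to neurons. The retinoic acid receptor RARb and the retinoid X receptor RXRg are nuclear receptors that sit on DNA as a pair and switch genes on when retinoic acid is bound. Several of the 9 genes are also read in other cells: Apoe in microglia, Gja1 in meningeal fibroblasts and S100b in ensheathing and myelin-forming glia. In bulk tissue, fewer cells of a type and less RNA per cell cannot be told apart.

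The libraries held 28957325 to 93093398 counted fragments and fell into 3 sets, each with 3 control and 3 dKO libraries that share a title prefix and a pair of indexes: set A has the prefix RAR, and sets B and C the prefix RXR. Neither whether the 3 libraries of a genotype within a set come from a single brain nor whether the sets are separate animals is stated, so that p-values measure the spread between these libraries, which may be technical in part. Replicate libraries differed by more than counting noise (chi-square per degree of freedom of 37.9 to 172 over genes). A marker of cortical excitatory neurons was present in every library (Neurod6 at 848 to 1834 CPM). Rarb was at 3.50 to 13.9 CPM in controls and 1.19 to 4.85 CPM in dKO, and Rxrg at 1.64 to 30.5 CPM in controls and 0.377 to 2.90 CPM in dKO. Within each region every dKO library was below every control for Rarb, and for Rxrg in medial and dorsal tissue, while the orbital ranges of Rxrg overlapped (2.35 to 21.4 CPM in controls and 0.408 to 2.898 CPM in dKO). In sets A and C the dKO libraries held Xist (9.45 to 31.4 CPM) and little Ddx3y (at most 0.203 CPM), while the other 12 held Ddx3y (58.3 to 119 CPM) and little Xist (at most 0.155 CPM), so that sex differs with genotype in 2 of the 3 sets and the dKO libraries of set B came from other animals than those of sets A and C. The medial control library of set A stood apart: it was the lowest of the 3 medial controls for 9 of 9 astrocyte genes and the lowest of all 18 libraries for 8 of 9, at the highest total of fragments. Its summed level of 8 meningeal fibroblast genes was 290.1 CPM, against 799.7 and 1356 CPM in the other medial controls.

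Levels of different genes were compared per kilobase of counted exon length (CPM per kb). Over the 9 control libraries Apoe, which encodes the main lipid carrier of the brain, was at 86.6 to 611 CPM per kb with a median of 270.1, and it was above the next gene in the order, Ndrg2, in 18 of 18 libraries. Below it came Ndrg2 (median 57.9, range 36.97 to 111), Gja1 (median 55.4, range 14.6 to 146) and Aldoc (median 43.00, range 21.7 to 80.7). Ndrg2 was above Gja1 in 16 of 18 libraries, whereas Gja1 was above Aldoc in only 8 of 18, and Gja1 and Aldoc did not differ beyond their spread. Mlc1 had a median of 14.6 CPM per kb (range 8.55 to 30.7) and was below Aldoc in 18 of 18 libraries. Gfap (median 5.57, range 2.36 to 12.2) and Aqp4 (median 4.61, range 0.873 to 6.64) were lower. Their ranges overlapped, with Gfap the higher in 16 of 18 libraries. At the bottom, S100b (median 2.19, range 0.413 to 3.83) and Slc1a2 (median 0.76, range 0.642 to 1.596) overlapped too, with S100b the higher in 10 of 18 libraries. The glutamate transporter gene Slc1a2, the intermediate filament gene Gfap and the water channel gene Aqp4, which are textbook markers of mature astrocytes, were thus all among the 4 lowest in these newborn samples. The low levels still rested on fragments that could be counted, with the lowest value being 23 fragments of S100b in a library.

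**Figure D1:**
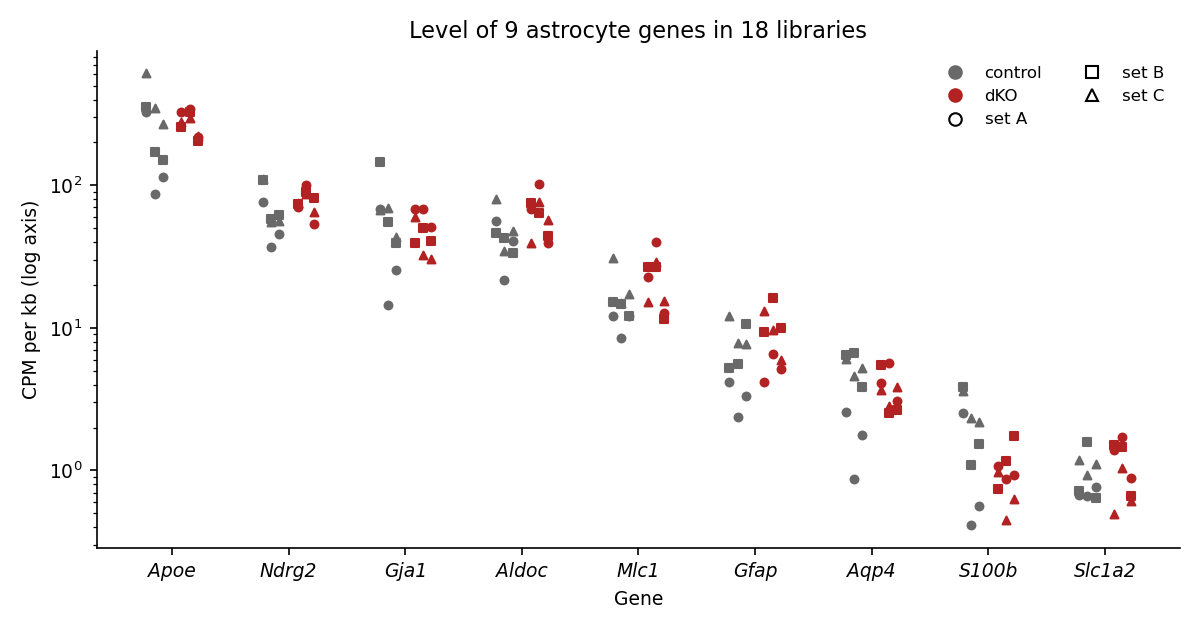
Level of each of the 9 genes in all 18 libraries, as CPM per kb on a log axis, ordered by the median of the 9 controls, which runs from 270.1 for Apoe to 0.76 for Slc1a2. Each point is a library (grey control, red dKO, the shape giving the set), and within a genotype orbital, medial and dorsal libraries run from left to right.

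The question for each region was whether the dKO changed the level. In medial tissue 3 of the 9 astrocyte genes were higher in dKO by edgeR's quasi-likelihood test (adjusted p under 0.05): Ndrg2, Aldoc and Mlc1, by 1.78-fold, 2.32-fold and 2.44-fold. None fell. Of all 18730 genes tested in medial tissue, 2.08% passed (221 higher and 168 lower). The log2 difference was above 0 for 8 of the 9, with a median of 0.68, against 49.6% of all genes above 0 and a median of -0.00426 over all genes. Since the 9 were chosen with earlier results of these data known, these shares are a description and not a test.

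Ndrg2 (ENSMUSG00000004558, chromosome 14, 51905271 to 51914158, minus strand, GRCm38) encodes an astrocyte-enriched protein of the N-myc downstream regulated family. In sets A, B and C its level was 126, 197 and 189 CPM in medial controls and 339, 304 and 296 CPM in medial dKO. Every dKO library was above every control. The means were 170.3 ± 38.9 and 313 ± 23.04 CPM (SD, n = 3), and the log2 fold change was 0.83 (SE 0.14, adjusted p = 0.00834). Ndrg2 lies on the chromosome of the mutated Rarb, 35.1 Mb from it, and the part of linked sequence in its difference was not tested. Aldoc (ENSMUSG00000017390, chromosome 11, 78322968 to 78327781, plus strand) encodes aldolase C, the brain form of a glycolytic enzyme. It was at 70.6, 140.3 and 113 CPM in medial controls and 333, 207 and 249 CPM in dKO, again without overlap. Mean levels were 108 ± 35.1 and 263 ± 64.2 CPM (SD, n = 3), a log2 fold change of 1.22 (SE 0.29, adjusted p = 0.0391). Mlc1 (ENSMUSG00000035805, chromosome 15, 88955884 to 88979007, minus strand) encodes a membrane protein of astrocyte endfeet that is mutated in a leukodystrophy with brain swelling. Its level was 23.9, 41.00 and 41.6 CPM in medial controls and 112, 74.3 and 80.6 CPM in dKO. These groups did not overlap either, with means of 35.5 ± 10.02 and 89.1 ± 20.4 CPM (SD, n = 3) and a log2 fold change of 1.29 (SE 0.31, adjusted p = 0.0408).

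The size of these differences varied between sets. The control and dKO library of a set are not known to be a pair, so differences within sets are descriptions here and below. How many of all genes keep the same sign over the sets was not counted. Within sets A, B and C the log2 CPM difference, after scaling between libraries by TMM, was 1.25, 0.57 and 0.65 for Ndrg2. It was 2.05, 0.51 and 1.13 for Aldoc and 2.04, 0.80 and 0.95 for Mlc1. All 9 values were above 0, and set A, which holds the low control library, gave the highest value for each gene. Without set A the log2 fold changes were 0.61, 0.82 and 0.88, with adjusted p of 0.192, 0.418 and 0.407. Leaving out any of the 6 medial libraries ended the call for Aldoc (adjusted p 0.0571 to 0.203) and for Mlc1 (0.0821 to 0.228), while Ndrg2 missed the threshold only without the dKO library of set A (log2 fold change 0.66, adjusted p = 0.07). By Xist and Ddx3y only the dKO libraries of set B had the sex of the controls, so a sex term is separated from genotype through that set alone. With sex as a covariate the adjusted p of Ndrg2 was 0.039, that of Aldoc 0.131 and that of Mlc1 0.146. Without the title prefix as a term these were 0.065, 0.0612 and 0.0776, and with the spread taken from the medial libraries alone 0.102, 0.102 and 0.0897.

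**Figure D2:**
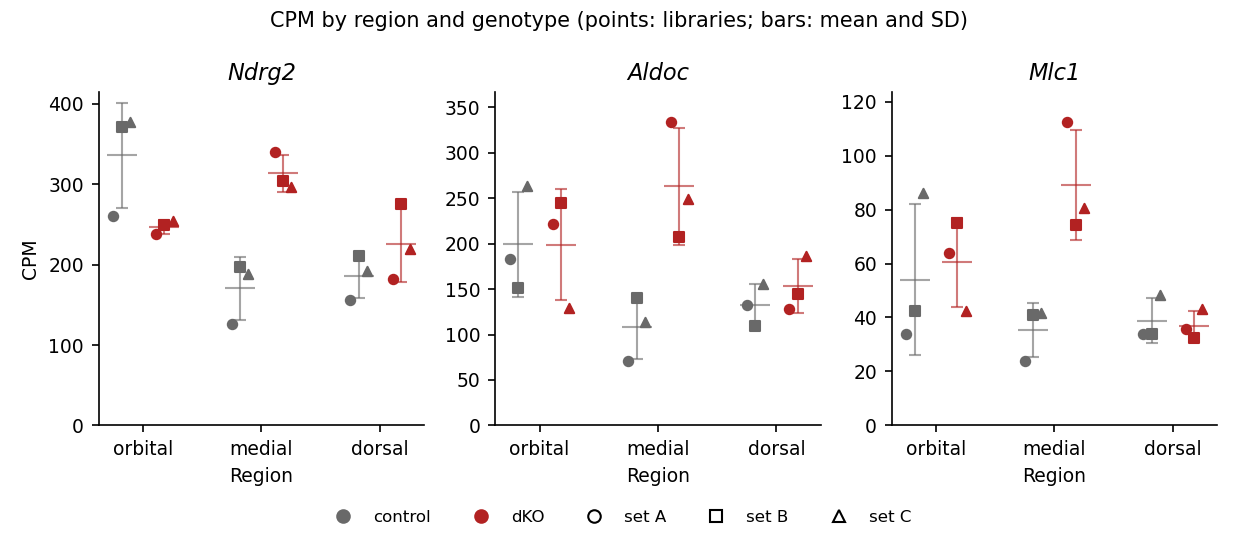
CPM of Ndrg2, Aldoc and Mlc1 by region in control (grey) and dKO (red) libraries, with points for libraries, shapes for sets and bars for mean and SD (n = 3). In medial tissue the dKO points of Ndrg2 (339, 304 and 296) all lie above the control points, as do those of Aldoc and Mlc1, while the dorsal groups overlap for the 3 genes.

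The promoters of the 3 genes higher in medial dKO are shown with that of Gfap, because the mutated receptors bind DNA and these sequences are where their motif would first be looked for. The windows run from 250 bases before to 50 bases after the RefSeq start (GRCm38.p6), and for Ndrg2 the most upstream of its starts was taken. Both strands were searched for the retinoid receptor motif AGGTCA, the STAT motif TTCNNNGAA, the NFI motif TTGGCA and the SOX motifs ACAAAG and ACAATG. The STAT, NFI and SOX motifs belong to factors known in astrocyte formation. AGGTCA and TTGGCA are each only a part of a full site, and full sites for a receptor pair were not searched for. Capitals mark the matches, none of which overlap each other.
Aldoc, chr11:78322823-78323122, plus strand: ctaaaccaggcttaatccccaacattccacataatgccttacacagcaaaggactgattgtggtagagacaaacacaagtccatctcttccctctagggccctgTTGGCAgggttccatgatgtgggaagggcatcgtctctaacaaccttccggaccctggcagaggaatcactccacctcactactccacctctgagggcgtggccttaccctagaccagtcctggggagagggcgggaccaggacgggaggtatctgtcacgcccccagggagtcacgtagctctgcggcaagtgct
Mlc1, chr15:88978504-88978803, minus strand: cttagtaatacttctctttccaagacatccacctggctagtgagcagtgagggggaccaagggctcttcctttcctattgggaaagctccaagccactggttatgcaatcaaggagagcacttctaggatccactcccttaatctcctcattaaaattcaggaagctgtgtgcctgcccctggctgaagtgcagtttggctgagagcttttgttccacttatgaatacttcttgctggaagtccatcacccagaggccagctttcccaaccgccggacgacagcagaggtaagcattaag
Ndrg2, chr14:51913955-51914254, minus strand: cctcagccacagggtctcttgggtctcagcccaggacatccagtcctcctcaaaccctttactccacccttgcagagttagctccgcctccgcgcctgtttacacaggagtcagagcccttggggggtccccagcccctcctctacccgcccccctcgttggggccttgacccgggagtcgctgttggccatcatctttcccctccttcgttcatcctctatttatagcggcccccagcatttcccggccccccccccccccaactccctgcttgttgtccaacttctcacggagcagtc
Gfap, chr11:102897151-102897450, minus strand: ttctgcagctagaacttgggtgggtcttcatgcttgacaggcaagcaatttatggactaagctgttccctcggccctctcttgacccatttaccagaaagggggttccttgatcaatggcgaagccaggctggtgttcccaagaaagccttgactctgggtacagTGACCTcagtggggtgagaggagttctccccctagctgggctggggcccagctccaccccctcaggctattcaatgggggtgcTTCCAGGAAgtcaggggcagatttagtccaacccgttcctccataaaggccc
The Aldoc window held an NFI motif, and those of Mlc1 and Ndrg2 held none of the 4 motifs. The Gfap window held AGGTCA, a part of a retinoid receptor site, on the minus strand of the printed sequence, and a STAT motif. Whether this AGGTCA belongs to a full site was not tested. Over the 8 astrocyte genes with an entry, the retinoid receptor motif was in 2 (Gfap and Slc1a2), against 16.3% of all 32851 promoter windows. The NFI motif was in 2 (Aldoc and S100b; 14.1% of all), the STAT motif in 1 (8.298% of all) and a SOX motif in 1, Apoe (28.6% of all). A match is a description of these letters only.

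The 6 other astrocyte genes did not pass in medial tissue, where their controls were widely spread. Gfap (ENSMUSG00000020932, chromosome 11, 102887336 to 102900912, minus strand), the intermediate filament of astrocytes, was at 9.97, 23.5 and 33.3 CPM in controls and 27.9, 67.9 and 40.98 CPM in dKO. The dKO library was above its control in each of the 3 sets, but the groups overlapped, and the log2 fold change was 1.03 (SE 0.31, adjusted p = 0.102). With DESeq2 Gfap passed as well (adjusted p = 0.0237). Apoe was at 185, 366 and 750.1 CPM in controls and 732, 700.3 and 632 CPM in dKO. The dKO libraries lay close together at the level of the highest control, and the log2 fold change was 0.68 (SE 0.35, adjusted p = 0.376). Gja1, which encodes the gap junction protein connexin 43, was at 149.6, 568 and 709 CPM in controls and 695, 515 and 332 CPM in dKO. Its difference changed sign with the set, at 2.03, -0.20 and -1.10 (log2 CPM after TMM scaling) in sets A, B and C. Aqp4, the water channel of the endfeet, did the same (2.50, -1.44 and -0.72), from 4.44, 33.8 and 23.4 CPM in controls and 28.8, 12.9 and 14.3 CPM in dKO. The fitted log2 fold changes were 0.10 (SE 0.43) for Gja1 and 0.07 (SE 0.51) for Aqp4, and without set A they were -0.62 and -1.10. Slc1a2 (ENSMUSG00000005089, chromosome 2, 102658659 to 102790784, plus strand), which encodes the glutamate transporter GLT-1, was at 8.701, 20.96 and 12.2 CPM in controls and 22.4, 19.1 and 13.6 CPM in dKO, a log2 fold change of 0.32 (SE 0.39). S100b, a calcium-binding protein gene, had a log2 fold change of -0.52 (SE 0.53).

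**Figure D3:**
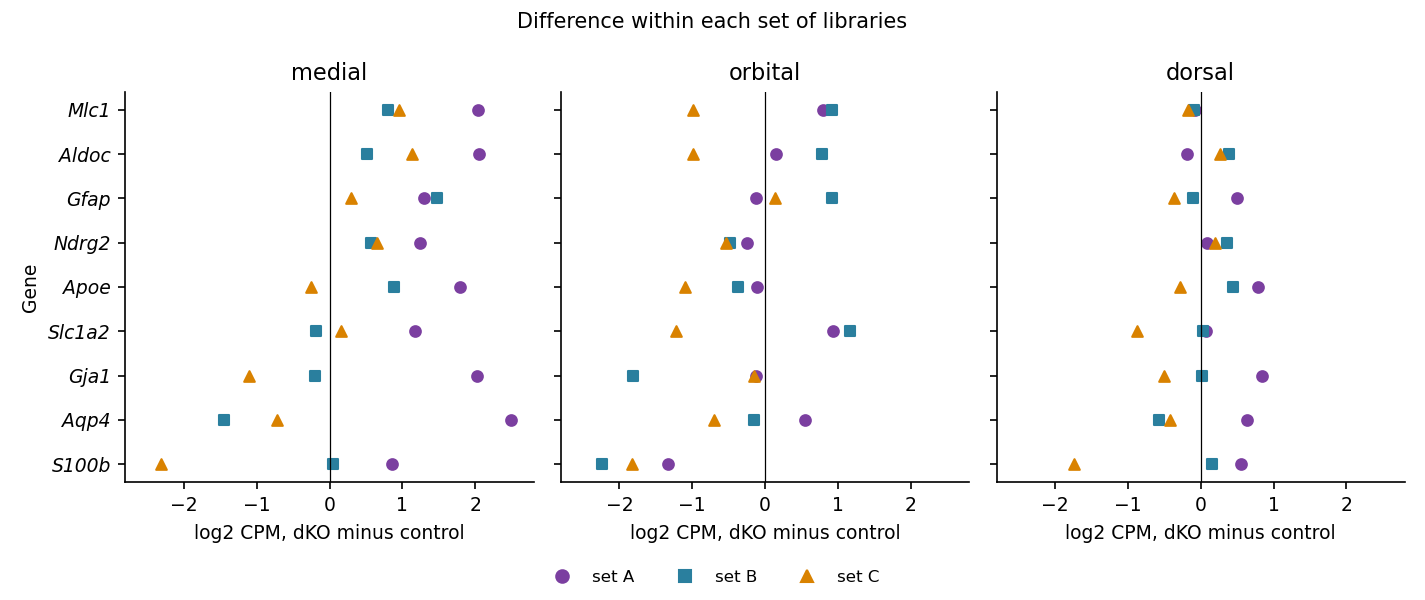
Difference in log2 CPM, after TMM scaling, between the dKO and the control library of each set (purple circles A, blue squares B, orange triangles C), for each gene and region. The libraries so compared are not known to be pairs. In medial tissue the 3 sets lie above 0 for Mlc1, Aldoc, Gfap and Ndrg2, whereas Aqp4 runs from -1.44 in set B to 2.50 in set A.

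Other genes of the same pathways were counted in lists. Among 22 other early astrocyte genes, 2 rose in medial dKO and none fell: Dbi, whose product binds acyl-CoA and GABA receptors, by 1.41 (SE 0.29, adjusted p = 0.0204) on the log2 scale, and Mfge8, a secreted bridge for engulfment, by 1.04 (SE 0.21, adjusted p = 0.0206). Dbi was at 70.9, 84.4 and 115 CPM in medial controls and 249, 291 and 207 CPM in dKO, with no overlap. Of the 22, 18 had a log2 difference above 0, with a median of 0.61. Of 9 partners of Aqp4 and Mlc1 at the endfoot only the potassium channel gene Kcnj10 passed, with 3.19 (SE 0.61, adjusted p = 0.0157). Its level was 5.04, 1.21 and 1.46 CPM in controls and 24.1, 22.4 and 17.5 CPM in dKO. Kcnj10 lies 4.70 Mb from the mutated Rxrg on chromosome 1 (172341210 to 172374085), and the part of linked sequence was not tested. Vim, the filament partner of Gfap that radial glia also hold, was the 1 of 4 filament genes to rise (0.82 (SE 0.14, adjusted p = 0.00753)). Of 10 relatives of Aldoc, Ndrg2 and S100b, Ndrg4, a family member known from neurons, was the 1 that passed, and it fell (-0.73 (SE 0.16, adjusted p = 0.0303)). No gene passed among 7 of glutamate and glutamine handling, 6 other connexins, 10 lipoprotein partners of Apoe, 10 gliogenic receptors and JAK-STAT genes or 12 gliogenic transcription factors, although 11 of these 12 had a difference above 0 (median 0.40).

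Markers of other cell types moved with the medial difference. Of 14 markers of radial glia and of intermediate progenitors 7 rose, among them Pax6 (2.46 (SE 0.38, adjusted p = 0.00449)) and Sfrp1 (1.20 (SE 0.19, adjusted p = 0.00562)), and their summed level was 384 to 665 CPM in controls and 922 to 1548 CPM in dKO. Of 15 cell cycle genes 11 rose, with sums of 227 to 290.3 and 487 to 829 CPM. Neither pair of ranges overlapped. Of 9 neuronal genes 1, the synaptotagmin gene Syt1, fell (-0.89 (SE 0.18, adjusted p = 0.0207)), and the neuronal sum was 7863 to 9008 CPM in controls and 6038 to 6464 CPM in dKO. None of 12 microglial genes passed, but all 12 had a difference above 0 (median 0.42), with sums of 141 to 261 and 249.6 to 290.2 CPM. For 8 meningeal fibroblast genes the sums overlapped (290.1 to 1356 and 699 to 1139.9 CPM). The summed level of the 22 other early astrocyte genes was 1622 to 2638 CPM in controls and 2989 to 3703 CPM in dKO. Among the markers of these lists only the intermediate progenitor gene Eomes was at 0 in any library, in 2 of 18. The part of these cell types in the differences of Ndrg2, Aldoc and Mlc1 was not tested.

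In orbital tissue no astrocyte gene passed (2 of 9 at an unadjusted p under 0.05, and 1, S100b, with DESeq2), where 0.0374% of all 18730 genes passed (2605 at an unadjusted p under 0.05, and 430 with DESeq2). S100b had the largest difference. It was at 3.75, 5.68 and 5.32 CPM in orbital controls and 1.59, 1.09 and 1.44 CPM in orbital dKO, with every dKO library below every control, and the log2 fold change was -1.76 (SE 0.53, adjusted p = 0.181). With DESeq2 the adjusted p was 0.0467. S100b (ENSMUSG00000033208, chromosome 10, 76253853 to 76261159, plus strand) lies across from Dip2a on the other strand, which held 2229% as many fragments, and counting ignored strand, so its level is uncertain. Ndrg2 was also lower in every orbital dKO library (238, 249 and 255 CPM) than in any orbital control (260.2, 370.4 and 377 CPM), with a log2 fold change of -0.42 (SE 0.14, adjusted p = 0.219). Gja1 was at 701, 1495 and 694 CPM in controls and 699, 401 and 613 CPM in dKO. The control library of set B was the highest of all 18 for Gja1, and the log2 fold change was -0.72 (SE 0.42, adjusted p = 0.463). Apoe was at 695, 756 and 1306 CPM in controls and 701, 551 and 595 CPM in dKO, with a log2 fold change of -0.54 (SE 0.34, adjusted p = 0.496). After scaling between libraries by TMM, the dKO library was below its control in each of the 3 sets for Ndrg2, S100b, Gja1 and Apoe. In set A these log2 differences were small for Gja1 (-0.12) and Apoe (-0.11), and without that scaling Apoe was slightly higher in dKO. The fitted difference was above 0 for 3 of the 9 genes, against 47.5% of all genes. How many of all genes were lower in each set, or without overlap, was not counted, so these orders are descriptions and not tests. The remaining log2 fold changes were -0.10 for Aqp4, -0.01 for Aldoc, 0.18 for Mlc1, 0.24 for Gfap and 0.40 for Slc1a2, with SEs of 0.28 to 0.49.

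Marker lists of other cells differed in direction in orbital dKO, with ensheathing, microglial and meningeal genes below 0 and most cell cycle and radial glia genes above 0. Of 5 ensheathing glia genes tested 2 fell and all 5 had a difference below 0 (median -2.77), with Prss56 among those that fell (-6.34 (SE 0.96, adjusted p = 0.0224)). Prss56 was at 46.4, 7.399 and 2.58 CPM in orbital controls and 0.0947, 0.0964 and 0.219 CPM in orbital dKO, where it rested on few fragments. The sum of the ensheathing list was 203 to 391 CPM in controls and 91.8 to 129 CPM in dKO, while Foxd3 of that list was at 0 in 15 of 18 libraries and Prss56 in 6. No gene of 12 microglial and 8 meningeal ones passed, and all of them had a difference below 0 (medians -0.60 and -0.71). The microglial sum was 314 to 408 CPM in controls and 200.4 to 286 CPM in dKO, and the meningeal sum 1601 to 2075 and 757 to 1336 CPM, neither overlapping. The 22 other early astrocyte genes overlapped in their sum (2397 to 3359.8 and 2178 to 3071 CPM; none passed). None of 15 cell cycle genes passed, but all 15 were above 0 (median 0.59), with sums of 302 to 399 CPM in controls and 417 to 634 CPM in dKO that did not overlap. Of 14 markers of radial glia and intermediate progenitors none passed and 11 were above 0 (median 0.47), with overlapping sums. The part of these markers in the values of S100b, Gja1 and Apoe was not tested.

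Dorsal tissue held no astrocyte gene that passed, none that reached an unadjusted p under 0.05 and none that passed with DESeq2, where 0.0214% of all genes passed (1270 at an unadjusted p under 0.05, and 62 with DESeq2). The log2 fold changes ran from -0.32 (SE 0.52) for S100b to 0.27 (SE 0.34) for Apoe. Ndrg2 was at 155, 211 and 192 CPM in dorsal controls and 182, 275 and 219 CPM in dorsal dKO. It was higher in dKO in each of the 3 sets, with overlapping groups and a log2 fold change of 0.22 (SE 0.14, adjusted p = 0.839). Mlc1 was at 34.03, 33.98 and 48.4 CPM in dorsal controls and 35.6, 32.3 and 43.1 CPM in dorsal dKO, and its log2 fold change was -0.12 (SE 0.30). No marker of radial glia or of the cell cycle passed in dorsal tissue, with 12 of 14 (median 0.40) and 13 of 15 (median 0.81) above 0. With the 3 regions of each set and genotype summed, no astrocyte gene passed (3 of 9 at an unadjusted p under 0.05, and 0 with DESeq2), where 0.0249% of 20083 genes passed (1814 at an unadjusted p under 0.05, and 359 with DESeq2). All 15 cell cycle genes were above 0 there too (median 0.97; none passed), and 12 of the 14 markers of radial glia and intermediate progenitors (median 0.67; none passed). The 3 astrocyte genes were S100b (-1.05 (SE 0.35, adjusted p = 0.439)), Aldoc (0.41 (SE 0.16, adjusted p = 0.513)) and Gfap (0.43 (SE 0.18, adjusted p = 0.528)), on the log2 scale.

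**Figure D4:**
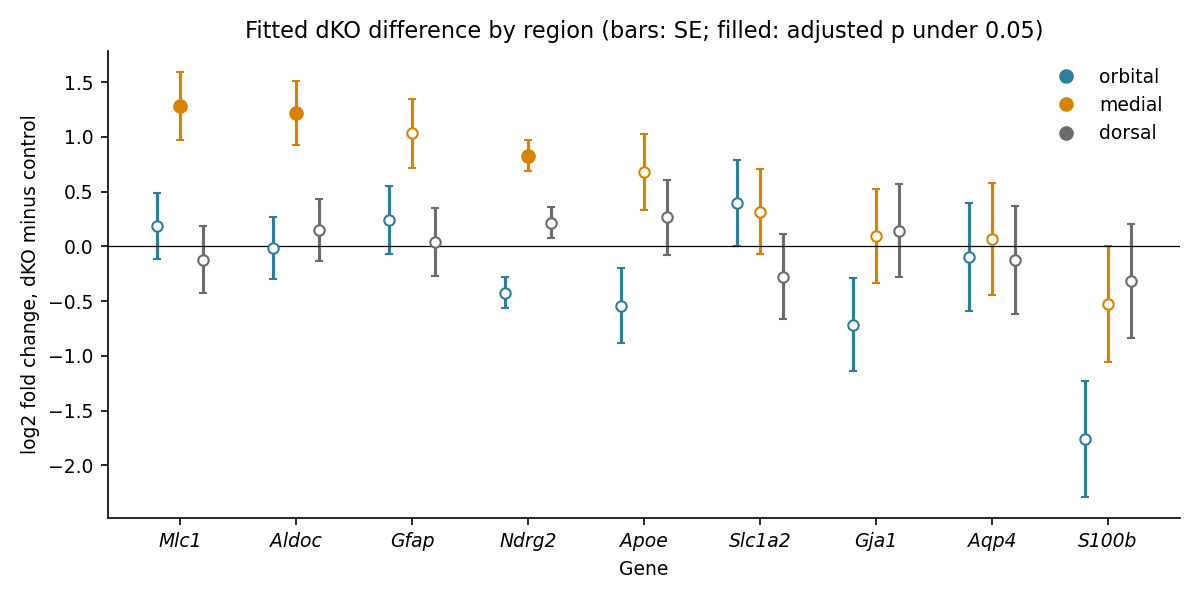
Fitted log2 fold change of dKO minus control for each gene in orbital (blue), medial (orange) and dorsal (grey) tissue, with bars for the SE. Filled points have an adjusted p under 0.05, which only medial Mlc1 (1.29), Aldoc (1.22) and Ndrg2 (0.83) reached.

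Among controls, the genes differed between regions. Orbital tissue held the most Apoe, Ndrg2, Gja1 and S100b, and each of these 4 passed against both medial and dorsal tissue in a fit with the genotype and set of each library as a block. Of all genes 9.02% passed between medial and orbital controls and 15.8% between orbital and dorsal controls. Apoe (ENSMUSG00000002985, chromosome 7, 19696109 to 19699188, minus strand) was at 695, 756 and 1306 CPM in orbital, 185, 366 and 750.1 CPM in medial and 244, 320.4 and 577 CPM in dorsal controls. In each set orbital was the highest of the 3 regions, and the log2 differences were -1.17 (SE 0.16, adjusted p = 0.00485) for medial minus orbital and 1.21 (SE 0.16, adjusted p = 0.0012) for orbital minus dorsal. Ndrg2 was at 260.2, 370.4 and 377 CPM in orbital, 126, 197 and 189 CPM in medial and 155, 211 and 192 CPM in dorsal controls. Orbital libraries did not overlap with the others, and the log2 differences were -0.91 (SE 0.12, adjusted p = 0.00485) and 0.73 (SE 0.12, adjusted p = 0.00314). Gja1 (ENSMUSG00000050953, chromosome 10, 56377330 to 56402513, plus strand) was at 701, 1495 and 694 CPM in orbital and 263, 407 and 443 CPM in dorsal controls, a log2 difference of 1.25 (SE 0.32, adjusted p = 0.0176). Against medial controls its difference was -1.10 (SE 0.32, adjusted p = 0.0479), and in set C medial tissue was the higher. S100b had log2 differences of -1.63 (SE 0.40, adjusted p = 0.0265) and 1.35 (SE 0.40, adjusted p = 0.0353), and its orbital controls were all above its medial and dorsal controls.

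Without the control libraries of set A, which hold the low medial one, Apoe (-0.84, adjusted p = 0.017) and Ndrg2 (-0.87, 0.021) passed in medial minus orbital controls, as did 1219 of all genes. Without set A as a whole, control and dKO libraries, the medial minus orbital difference was -0.84 for Apoe (adjusted p = 0.0575), -0.88 for Ndrg2 (0.0575), -0.64 for Gja1 (0.283) and -1.13 for S100b (0.205), and no gene of all passed. For orbital minus dorsal without set A, Apoe (1.09, adjusted p = 0.00905) and Ndrg2 (0.78, 0.0222) passed, and Gja1 (1.20, 0.0559) and S100b (0.92, 0.266) did not. Leaving out the control libraries of set B ended the orbital minus dorsal call of Gja1 (adjusted p = 0.144), and leaving out those of any set ended that of S100b (0.0653 to 0.19). For medial minus orbital, leaving out the control libraries of set A or B ended the calls of Gja1 (adjusted p = 0.208 and 0.196) and S100b (0.134 and 0.105). With DESeq2 Gja1 missed the threshold in medial minus orbital controls (adjusted p = 0.0975), as with other size factors (0.0554), and Aldoc passed (0.0356). Without the block only Ndrg2 passed in both contrasts (adjusted p = 0.0235 and 0.0355).

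Aldoc (-0.80, SE 0.28), Mlc1 (-0.46, SE 0.24), Aqp4, Gfap and Slc1a2 did not pass in either contrast, and no astrocyte gene passed between medial and dorsal controls (0 of 9 at an unadjusted p under 0.05, and 0 with DESeq2; 0.491% of all genes passed, 1753 at an unadjusted p under 0.05 and 345 with DESeq2). Related genes behaved variously in orbital minus dorsal controls. The astrocyte connexin gene Gjb6 (1.97 (SE 0.29, adjusted p = 0.00193)) and the meningeal and glial connexin gene Gjb2 (1.69 (SE 0.30, adjusted p = 0.00398)) were higher in orbital tissue beside Gja1, whereas the neuronal and vascular connexin gene Gjc1 was lower (-0.48 (SE 0.14, adjusted p = 0.0352)). Of the S100 relatives, S100a1 (1.53 (SE 0.23, adjusted p = 0.00204)), S100a6, S100a13 and S100a16 were higher. Among the 22 other early astrocyte genes 6 were higher in orbital tissue, such as Fabp7, a fatty acid carrier of radial glia and young astrocytes (0.66 (SE 0.13, adjusted p = 0.00567)), and 2, Tnc and Gpc4, were lower.

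Markers of other cells were higher in orbital controls too. Of 12 microglial genes 9 were higher in orbital than in dorsal controls and 8 in orbital than in medial controls, with sums of 314 to 408 CPM in orbital, 141 to 261 CPM in medial and 169 to 196 CPM in dorsal controls. Of 8 meningeal genes 5 were higher in each contrast, with sums of 1601 to 2075, 290.1 to 1356 and 724 to 974 CPM. Of 5 ensheathing genes 2 were higher in orbital than in dorsal controls, Prss56 (6.90 (SE 0.85, adjusted p = 0.00087)) among them, as were 5 of 15 cell cycle genes and 4 of 14 markers of radial glia and intermediate progenitors. Of 9 neuronal genes 4 were lower in orbital than in dorsal controls. The part of these cells in the regional levels of Apoe, Gja1 and S100b was not tested.

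**Figure D5:**
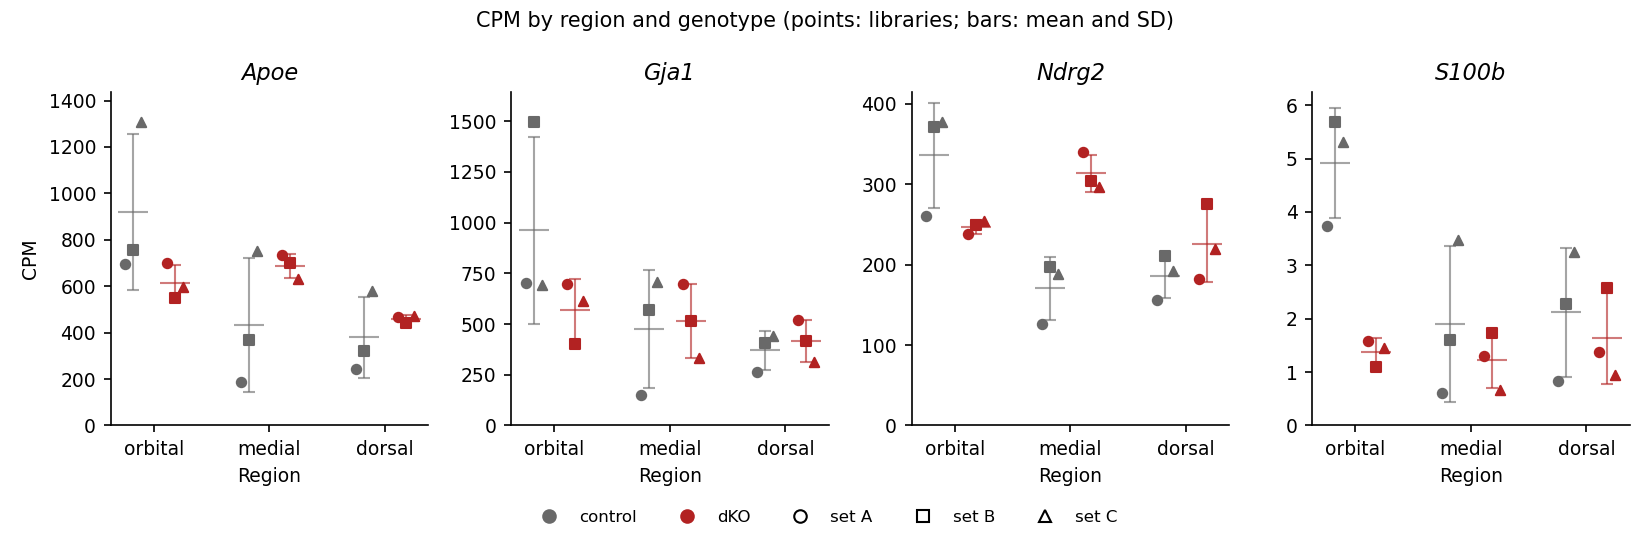
CPM of Apoe, Gja1, Ndrg2 and S100b by region in control (grey) and dKO (red) libraries, with points for libraries, shapes for sets and bars for mean and SD (n = 3). Orbital controls of S100b (3.75, 5.68 and 5.32) lie above all other S100b points, and orbital controls of Gja1 include the highest point, 1495 CPM in set B.

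The same regional contrasts were made within dKO. No astrocyte gene passed between medial and orbital dKO (2 of 9, Ndrg2 and Mlc1, at an unadjusted p under 0.05, and 0 with DESeq2), where 0.016% of all genes passed (1366 at an unadjusted p under 0.05, and 145 with DESeq2). None passed between orbital and dorsal dKO either (2 of 9, Mlc1 and Apoe, at an unadjusted p under 0.05, and 0 with DESeq2), where 0.486% of all genes passed (1359 and 321). Ndrg2 had a log2 difference of 0.34 (SE 0.12, adjusted p = 0.591) for medial minus orbital dKO, and Apoe of 0.16 (SE 0.16, adjusted p = 0.857). For orbital minus dorsal dKO the values were 0.09 (SE 0.12) for Ndrg2, 0.36 (SE 0.16) for Apoe, 0.42 (SE 0.31) for Gja1 and -0.16 (SE 0.41) for S100b. Between medial and dorsal dKO, where 2.09% of all genes passed, Mlc1 was the 1 astrocyte gene that passed. It was higher in medial tissue by 1.18 (SE 0.24, adjusted p = 0.0231) on the log2 scale, from 35.6, 32.3 and 43.1 CPM in dorsal to 112, 74.3 and 80.6 CPM in medial dKO, without overlap. That call was lost without the dKO libraries of set A (0.97, adjusted p = 0.4) or set B (1.19, 0.108), and without the block (1.22, 0.11).

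Whether the dKO difference itself differed between regions was tested as an interaction. Between medial and orbital tissue, where 1.47% of all genes passed, it passed for 2 of the 9: Ndrg2, with a difference of 1.25 (SE 0.17, adjusted p = 0.0184) on the log2 scale, and Apoe, with 1.33 (SE 0.22, adjusted p = 0.0269). Ndrg2 was higher in dKO in medial and lower in dKO in orbital tissue in each of the 3 sets. For Apoe the dKO library was, after TMM scaling, lower in orbital tissue in 3 of 3 sets and higher in medial tissue in 2 of 3. Without that scaling, orbital Apoe of set A was at 695 CPM in control and 701 CPM in dKO. Aldoc (1.20 (SE 0.40, adjusted p = 0.119)), Mlc1 (1.01 (SE 0.34, adjusted p = 0.123)), Gja1 (0.90 (SE 0.45, adjusted p = 0.273)) and S100b (1.33 (SE 0.58, adjusted p = 0.212)) did not pass, so that their medial and orbital differences were not shown to differ. Without set A the values were 1.12 for Ndrg2 and 1.05 for Apoe (adjusted p = 0.107 for each). Leaving out the dKO libraries of set A or B, or the control libraries of set B or C, also ended both calls (adjusted p up to 0.209), as did leaving out the block (0.105 and 0.39). Of the other early astrocyte genes Dbi (1.53 (SE 0.23, adjusted p = 0.0184)) and Fabp7 (1.20 (SE 0.18, adjusted p = 0.0184)) passed the same test, as did the S100 relatives S100a1 and S100a16. The microglial genes Trem2 (1.88 (SE 0.36, adjusted p = 0.0303)) and Tmem119 (1.84 (SE 0.36, adjusted p = 0.0308)) passed too, in the same direction, as did 2 of 5 ensheathing genes, Prss56 among them. All 12 microglial genes (median 1.06) and all 8 meningeal genes (median 1.05; none passed) were above 0 in this test, as were all 15 cell cycle genes (median 0.85; 3 passed). The part of these markers in the values of Ndrg2 and Apoe was not tested.

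No astrocyte gene passed the test of the dKO difference between medial and dorsal tissue (4 of 9 at an unadjusted p under 0.05, and 1, Mlc1, with DESeq2; 0% of all genes passed, 969 of them at an unadjusted p under 0.05 and 61 with DESeq2). Mlc1 came first there, with 1.37 (SE 0.34, adjusted p = 0.524). Between orbital and dorsal tissue none passed either (3 of 9 at an unadjusted p under 0.05, and 1, Apoe, with DESeq2; 0% of all genes, with 2363 at an unadjusted p under 0.05 and 313 with DESeq2), and the values of those 3 were -1.50 (SE 0.57) for S100b, -0.85 (SE 0.22) for Apoe and -0.64 (SE 0.17) for Ndrg2.

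The 9 genes did not vary as one group over the 18 libraries. Pearson's r of TMM-scaled log2 CPM is given as a description, since libraries share region, genotype and set. It was 0.89 between Aldoc and Mlc1 and 0.75 between Gja1 and S100b, but -0.05 between Mlc1 and S100b. Apoe stood between, at 0.66 with Aldoc and 0.72 with Gja1. List sums were compared on log2 CPM without that scaling. Against the summed level of the 22 other early astrocyte genes, r was 0.92 for Mlc1, 0.86 for Aldoc, 0.85 for Apoe and 0.78 for Ndrg2, and 0.29 for S100b and 0.43 for Gfap. Against the sum of 8 meningeal genes it was 0.92 for Gja1, 0.81 for Apoe and 0.78 for S100b, compared with 0.30 for Mlc1 and 0.42 for Aldoc. With the sum of 12 microglial genes r was 0.89 for Apoe, 0.81 for Gja1 and 0.80 for Ndrg2. With radial glia it was 0.72 for Aldoc and 0.70 for Mlc1. With the sum of 7 choroid plexus and ependyma genes it was 0.87 for Gja1, 0.84 for S100b and 0.79 for Apoe, against 0.23 for Mlc1 and 0.38 for Aldoc. With the sum of 9 neuronal genes it was -0.86 for Ndrg2. Gja1 and S100b thus followed the meningeal sum more closely than the astrocyte sum over these libraries, and Mlc1 and Aldoc the reverse. In the choroid plexus and ependyma list, Ttr was at most 2.99 CPM and Otx2 at most 2.07 CPM in any library. Since such markers add little to the sum of that list, its r does not show that a gene followed choroid plexus cells.

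The genes most alike to each by r of TMM-scaled log2 CPM, among genes of at least 5 CPM on average, are given as a description. Those nearest to Aldoc were Cyp2j9, Loxl1 and S1pr1 (r 0.91 to 0.94), and those nearest to Mlc1 were Sox9, Aldoc and Pea15a (r 0.88 to 0.90). Ndrg2 was nearest to Stxbp3, Phgdh and Pacsin3 (r 0.86 to 0.86), and Slc1a2 to Acsbg1, Dgkb and Ttyh1 (r 0.73 to 0.75). Among the nearest to Aqp4 were Ednrb and Add3 (r 0.79 to 0.82). Apoe was followed most closely by Trip6, Gsta4 and Sorbs3 (r 0.95 to 0.98), and Gja1 by Plin3, Crispld1 and Slc38a4 (r 0.93 to 0.93). For S100b these were Zfp385a, Shisa3 and Serpinb1a (r 0.89 to 0.90), and for Gfap Efcab2, Hmgn2 and Npnt (r 0.80 to 0.82).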

How the data were processed

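RNA of 18 microdissected frontal cortex samples was made into libraries with SMART-seq v4 and Nextera XT and sequenced as paired reads, per the labels' protocols. The authors deposited raw counts of fragments per gene, made with featureCounts 1.6.2 in pairs and without strand on Ensembl 94 gene models of GRCm38, per the file headers, after alignment with STAR 2.6, per the submitters' processing notes. Of the columns of values, 18 were used and 6 matched no sample. Symbols came from GENCODE M21 for 54409 of 54532 identifiers.

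Counts were fitted with edgeR 4.0.16 (R 4.3.3) after scaling by TMM and a filter by filterByExpr (minimum count 10, minimum total 15). Tests were quasi-likelihood F tests with Benjamini-Hochberg adjustment over all genes, with a threshold of 0.05. The dKO differences came from 6 group means plus the title prefix. Region differences and interactions had the row (set and genotype) as a block, and rows were also summed. DESeq2 1.42.0 was an alternative, with other size factors, no filter, other terms and left-out libraries. The fits were tested on simulated data. CPM used the library totals. Log2 CPM within sets and for r between genes was scaled by TMM with a prior count of 2, so these differences deviate from those of the printed CPM. For r with list sums, log2 of the unscaled CPM was used without a prior count. Totals of 28957325 to 93093398 fragments leave counting error small beside the spread between libraries for genes with many fragments. This holds less for genes with few, such as S100b (23 to 344 fragments) and Prss56 in dKO.

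The 9 members and the gene lists were chosen with earlier results of these data known. All 9 are named. Of each list up to 4 genes are named where they passed in a dKO comparison, lowest p first, and the genes named in region contrasts and some markers of list sums were chosen after their values were seen. For each member the 3 genes with the highest Pearson r are named. Some genes that these rules select are not reported here. Figures used matplotlib.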

Additional observations from a re-analysis of the deposited data

Results flagged for a closer look

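The dKO difference of Ndrg2 differed between medial and orbital tissue by 1.25 on the log2 scale (SE 0.17, adjusted p = 0.0184, edgeR's quasi-likelihood test of the interaction). Ndrg2 was higher in dKO in medial tissue and lower in dKO in orbital tissue in each of the 3 sets. Over the 11 alternatives run, its difference between regions was 1.12 to 1.31 and passed in 5.

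For Apoe the same difference was 1.33 (SE 0.22, adjusted p = 0.0269). Over the 11 alternatives run it was 0.98 to 1.52 and passed in 5. After TMM scaling Apoe was lower in orbital dKO in each of the 3 sets and higher in medial dKO in 2 of the 3, a description since sets are not known pairs. Without that scaling, orbital Apoe of set A was at 695 CPM in control and 701 CPM in dKO. In the same test all 12 microglial genes (median 1.06) and all 8 meningeal fibroblast genes (median 1.05) were above 0, and over the 18 libraries Pearson's r of Apoe was 0.89 with the summed level of the first list and 0.81 with that of the second. The part of these cells in the difference of Apoe was not tested.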

How the results depend on the processing

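Genotype differences of Ndrg2, Aldoc and Mlc1 in medial tissue kept their direction under all alternatives run, and so did the regional differences of Apoe, Ndrg2, Gja1 and S100b in controls. Over the 51 single-gene values reported, 487 of 593 recomputed values kept direction and side of the threshold, 62 lost the threshold, 13 gained it and 31 changed sign. With 3 libraries a group that differ in sex and depth, calls of Aldoc and Mlc1 depend on each medial library, and S100b, counted in as few as 23 fragments, has the largest counting error. The cause of each change was not tested. Leaving out set A was chosen after the data were seen. The counts under the settings of the report were 389 and 3 (medial dKO), 7 and 0 (orbital dKO), 4 and 0 (dorsal dKO), 5 and 0 (summed dKO), 1690 and 4 (control medial minus orbital), 92 and 0 (control medial minus dorsal), 2965 and 4 (control orbital minus dorsal), 3 and 0 (dKO medial minus orbital), 392 and 1 (dKO medial minus dorsal), 91 and 0 (dKO orbital minus dorsal), 275 and 2 (the dKO difference medial minus orbital), 0 and 0 (the dKO difference medial minus dorsal), 0 and 0 (the dKO difference orbital minus dorsal), giving genes and then astrocyte genes. With no filter on low counts, the number of genes past the threshold was 122 (orbital dKO), 26 (dorsal dKO), 65 (summed dKO), 356 (control medial minus dorsal), 197 (dKO medial minus orbital), 1169 (dKO medial minus dorsal), 339 (dKO orbital minus dorsal), 1600 (the dKO difference medial minus orbital), 72 (the dKO difference medial minus dorsal) and 578 (the dKO difference orbital minus dorsal), and the number of astrocyte genes was 5 (dKO medial minus dorsal), 1 (dKO orbital minus dorsal), 5 (the dKO difference medial minus orbital), 2 (the dKO difference medial minus dorsal) and 3 (the dKO difference orbital minus dorsal). With DESeq2, the number of genes past the threshold was 430 (orbital dKO), 1120 (medial dKO), 62 (dorsal dKO), 359 (summed dKO), 2897 (control medial minus orbital), 345 (control medial minus dorsal), 145 (dKO medial minus orbital), 1299 (dKO medial minus dorsal), 321 (dKO orbital minus dorsal), 1692 (the dKO difference medial minus orbital), 61 (the dKO difference medial minus dorsal) and 313 (the dKO difference orbital minus dorsal), and the number of astrocyte genes was 1 (orbital dKO), 3 (dKO medial minus dorsal), 4 (the dKO difference medial minus orbital), 1 (the dKO difference medial minus dorsal) and 1 (the dKO difference orbital minus dorsal). Without the title prefix, the number of genes past the threshold was 3 (orbital dKO), 156 (medial dKO), 2 (dorsal dKO) and 3 (summed dKO), and the number of astrocyte genes was 0 (medial dKO). With the set as a replicate block, the number of genes past the threshold was 14 (orbital dKO) and 662 (medial dKO). With sex as a covariate, the number of genes past the threshold was 17 (orbital dKO), 156 (medial dKO) and 9 (dorsal dKO), and the number of astrocyte genes was 1 (medial dKO). With only the libraries of the region, the number of genes past the threshold was 2 (orbital dKO), 31 (medial dKO) and 2 (dorsal dKO), and the number of astrocyte genes was 0 (medial dKO). Without the replicate block of set and genotype, the number of genes past the threshold was 19 (control medial minus orbital), 1 (control medial minus dorsal), 326 (control orbital minus dorsal), 1 (dKO medial minus orbital), 65 (dKO medial minus dorsal), 10 (dKO orbital minus dorsal) and 0 (the dKO difference medial minus orbital), and the number of astrocyte genes was 1 (control medial minus orbital), 1 (control orbital minus dorsal), 0 (dKO medial minus dorsal) and 0 (the dKO difference medial minus orbital). Without set A, the number of genes past the threshold was 19 (medial dKO), 0 (control medial minus orbital), 9 (control medial minus dorsal), 992 (control orbital minus dorsal), 52 (dKO medial minus dorsal), 4 (dKO orbital minus dorsal) and 0 (the dKO difference medial minus orbital), and the number of astrocyte genes was 0 (medial dKO), 0 (control medial minus orbital), 2 (control orbital minus dorsal), 0 (dKO medial minus dorsal) and 0 (the dKO difference medial minus orbital). With each library, or each row of 3 libraries in the summed and block fits, left out in turn, the number of genes ran over 3 to 8 (orbital dKO), 67 to 362 (medial dKO), 2 to 4 (dorsal dKO), 4 to 9 (summed dKO), 607 to 1219 (control medial minus orbital), 7 to 42 (control medial minus dorsal), 923 to 2146 (control orbital minus dorsal), 0 to 1 (dKO medial minus orbital), 29 to 119 (dKO medial minus dorsal), 4 to 21 (dKO orbital minus dorsal), 0 to 1472 (the dKO difference medial minus orbital), 0 to 1 (the dKO difference medial minus dorsal) and 0 to 1 (the dKO difference orbital minus dorsal), and that of astrocyte genes over 0 to 1 (medial dKO), 2 to 4 (control medial minus orbital), 2 to 3 (control orbital minus dorsal), 0 to 1 (dKO medial minus dorsal) and 0 to 2 (the dKO difference medial minus orbital). Differences that had not passed changed sign: with no filter on low counts 0.0501 for Aldoc in orbital dKO, with DESeq2 0.0334 for Aldoc in orbital dKO, without the title prefix -0.22 for Aqp4 in medial dKO, with the set as a replicate block 0.0149 for Aldoc in orbital dKO, with sex as a covariate -0.34 for Aqp4 in medial dKO and -0.11 for Gja1 in medial dKO, with only the libraries of the region 0.0175 for Aldoc in orbital dKO and -0.0226 for Aqp4 in medial dKO, without set A -0.0832 for Mlc1 in orbital dKO, -1.10 for Aqp4 in medial dKO, -0.62 for Gja1 in medial dKO, -0.0545 for Slc1a2 in medial dKO and -0.00914 for Ndrg2 in dKO orbital minus dorsal, with other size factors 0.0335 for Aldoc in orbital dKO. Left-out libraries gave ranges across 0 of -0.20 to 0.24 for Aldoc in orbital dKO, -0.038 to 0.66 for Mlc1 in orbital dKO, -0.31 to 0.10 for Aqp4 in orbital dKO, -0.0313 to 0.56 for Gfap in orbital dKO, -0.74 to 0.55 for Aqp4 in medial dKO, -0.42 to 0.45 for Gja1 in medial dKO, -0.95 to 0.093 for S100b in medial dKO, -0.0232 to 0.29 for Aldoc in dorsal dKO, -0.25 to 0.0212 for Mlc1 in dorsal dKO, -0.67 to 0.0269 for S100b in dorsal dKO and -0.00185 to 0.24 for Ndrg2 in dKO orbital minus dorsal. Set numbers were not used as pairs in the main fits, and the differences given within sets are descriptions. Control and dKO libraries of a set correlated in their deviations from the group means by -0.07 to 0.32. The set as a block gave 3 astrocyte genes in medial tissue, as without it. For the 3 regions of a set and genotype, the lowest pairwise correlation of these deviations was 0.20 to 0.61, depending on the set and genotype.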
